A study of Homo sapiens with 3 samples.

Results

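The genes described here are 10 members of the BCL2 family that are not among its best known p53 targets, measured in A549 cells after transfection of *miR-139-5p* or *miR-139-3p*. They are *BCL2*, *BCL2L1*, *BCL2L2*, *MCL1*, *BCL2A1*, *BAK1*, *BID*, *BIK*, *BCL2L11* and *BMF*, of 22439 RefSeq gene symbols on the array. A probe was taken where its RefSeq accession belongs to one of these genes, which gave 16 of 58201 probes. A549 is an established line derived from a lung adenocarcinoma in a human patient. Each of 3 Agilent arrays of 1 colour held RNA from 1 group: mock cells, which received the transfection reagent without a precursor, cells given a *miR-139-5p* precursor, and cells given a *miR-139-3p* precursor at the same concentration. The labels give no time after transfection.

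With 1 array per group, none of the differences below could be checked against replicates. They are descriptions without a test, and the small number of arrays limits how precise they are. Arrays for mock and *miR-139-5p* were on slide 1 and read in scan 1, whereas the *miR-139-3p* array was on slide 2 and read in scan 2. Slide, scan and transfection therefore cannot be told apart for *miR-139-3p*. Both comparisons also share the mock array, so a high or low mock spot moves both in the same direction. No array held cells given a control precursor. In the comparisons with mock, an effect of transfecting any precursor therefore cannot be told apart from that of a *miR-139* strand.

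The BCL2 family decides whether the outer membrane of the mitochondrion is opened during apoptosis. Anti-apoptotic members (*BCL2*, *BCL2L1*, *BCL2L2*, *MCL1* and *BCL2A1*) hold the pore-forming effectors in check, *BAK1* is such an effector, and the BH3-only members (*BID*, *BIK*, *BCL2L11* and *BMF*) relay stress signals by binding to the other groups. BCL-XL, the long product of *BCL2L1*, and MCL1 are well known survival proteins of lung cancer cells, and MCL1 is kept at its level by rapid turnover of the protein, which an array does not see.

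A miRNA lowers its targets mainly through pairing of its seed, bases 2 to 8, with the 3′UTR of an mRNA. The mature sequences of both strands of pre-*miR-139* are shown because they define the treatments, with the seed in capitals and written 5′ to 3′.
hsa-miR-139-5p: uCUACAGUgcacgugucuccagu
hsa-miR-139-3p: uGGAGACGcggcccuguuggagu
Both are 23 bases long and come from RefSeq, build GRCh38.p14, where they lie on the minus strand of chromosome 11, the first at chr11:72615102-72615124 and the second at chr11:72615066-72615088. Their hairpin of 68 bases overlaps the protein-coding gene *PDE2A* and a long non-coding RNA gene. The seeds CUACAGU and GGAGACG carry the same base at 2 of 7 positions. Sites for these seeds in the members' 3′UTRs were not analysed here.

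Signals below are the background-subtracted intensities of the arrays. A log2 fold change is the difference of log2 signals after the 75th percentile of each array was subtracted, and it was called past the threshold at 0.5 or more in size. That percentile was a signal of 93.6 on the mock, 88.9 on the *miR-139-5p* and 81.0 on the *miR-139-3p* array. A gene's value averages those of its probes that stood well above background on both arrays. On 300 probes printed 10 times, the median SD between spots of a probe on 1 array was 0.05 to 0.06 on the log2 scale, and 0.21 to 0.23 for signals under 20. All member probes are printed 1 time, so their error is given as the scanner software's own estimate, which covers no spread between cultures. On bright spots this estimate was nearly a fixed share of the signal, 0.10 for *BID* on each array. The ± 0.20 given for bright probes is therefore almost the same from gene to gene and was not measured on repeated spots. All 9 epithelial and A549 markers were well above background on every array. Of 7 markers of blood, endothelium and fibroblasts, PECAM1 and COL3A1 were not well above background on any array and LYZ had no probe. PTPRC was well above background on all 3 arrays with 2 of 5 probes (highest signal 10.3 on the mock, 10.2 on the *miR-139-5p* and 20.1 on the *miR-139-3p* array), COL1A1 on all 3, VWF in mock and with *miR-139-3p*, and CD3E with *miR-139-3p*. The summed signals per list were 7.33 to 103, beside 127452 to 217597 for the epithelial list. The fibroblast sum, mostly COL1A1, was 41.2 in mock cells and stood at 103 with *miR-139-5p* but at 23.7 with *miR-139-3p*. What part it has in the results was not tested.

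Transcripts of all 10 genes were detected by at least 1 probe on the mock array, and 12 of the 16 probes were well above background on all 3 arrays. After *miR-139-3p*, 1 of 10 members (*BIK*) was higher and 2 (*BID* and *BAK1*) were lower past the threshold, and none of the 5 anti-apoptotic members passed it. With quantile normalization, which the deposited values also carry, 3 of these 5 did: *BCL2* at -0.62, *BCL2L2* at 0.63 and *MCL1* at 0.52. In that setting 30.3% of all symbols were lower and 22.1% were higher past the threshold. The threshold was passed in the reported setting upward by 26.5% and downward by 27.9% of 15572 symbols, so the shares of members past the threshold, at 1 and 2 of 10, were not above the background of this comparison. After *miR-139-5p*, 1 of 9 members with a value (*BCL2A1*) was higher and 2 (*BCL2L1* and *BCL2*) were lower, all 3 of them anti-apoptotic, beside 10.7% higher and 12.3% lower of 15018 symbols, a background that 1 or 2 of 9 genes cannot be told apart from. The median over the members was 0.29 after *miR-139-3p* and -0.01 after *miR-139-5p*, and over all measured symbols it was -0.09 and 0.00. The first of these ranged from -0.03 with the brightest probe of each gene to 0.42 with the 75th percentile of detected probes, so its sign was not stable. In these RNA pools, fewer cells that carry a transcript and less of it per cell cannot be told apart.

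**Figure D1:**
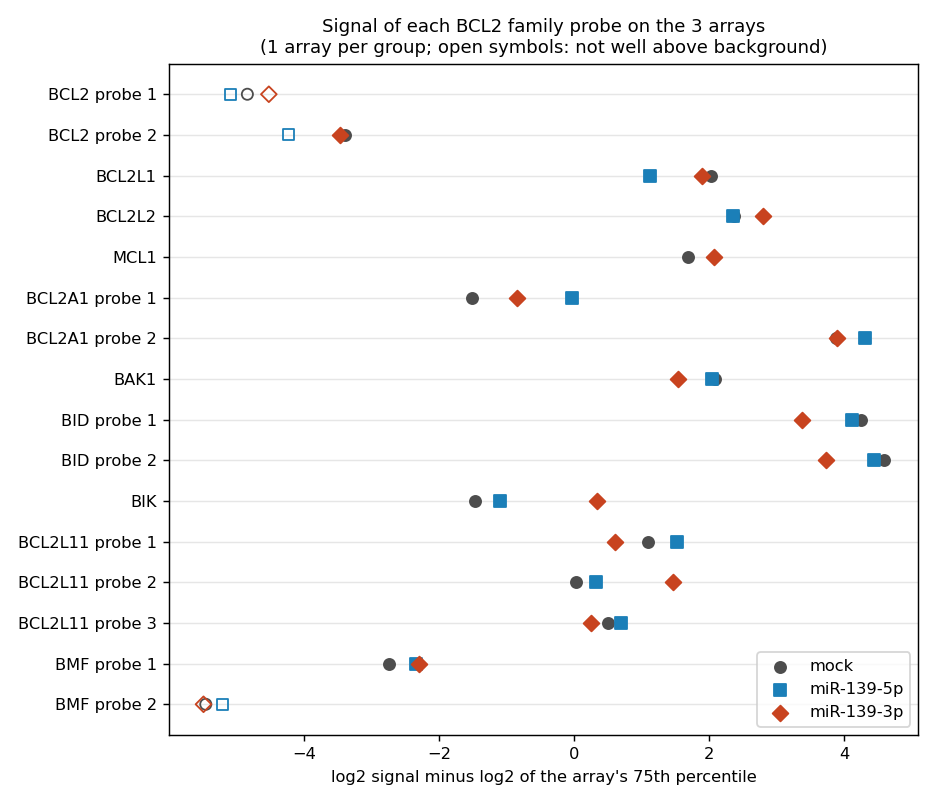
The log2 signal of each of the 16 probes minus the log2 of its array's 75th percentile (x axis) is plotted for each of the 3 groups, 1 array per group. Filled symbols are well above background and open symbols are not; *BIK* and probe 2 of *BCL2L11* have their highest symbol after *miR-139-3p*, and *BCL2L1* has its lowest after *miR-139-5p*.

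Among the anti-apoptotic members, *BCL2L1* was lower after *miR-139-5p*. Its probe had a signal of 381 on the mock, 193 on the *miR-139-5p* and 301 on the *miR-139-3p* array. Only the *miR-139-5p* array was low. The log2 fold change was -0.90 ± 0.20 (software error) after *miR-139-5p*, or 53.5% of mock, and 3.27% of all symbols lay below it. After *miR-139-3p* it was -0.13 ± 0.20, within the threshold. Set against each other without the mock array, *BCL2L1* was 0.78 higher after *miR-139-3p* than after *miR-139-5p*.

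*BCL2*, the founding member of the family, was near the limit of detection. Probe 1 had signals of 3.27 on the mock, 2.62 on the *miR-139-5p* and 3.53 on the *miR-139-3p* array, none of them well above background. Probe 2 had a signal of 8.93 on the mock and 7.29 on the *miR-139-3p* array, both well above background, but its signal of 4.76 after *miR-139-5p* was not. *BCL2* was therefore at least 1.66-fold lower after *miR-139-5p*, a bound of -0.73 on the log2 scale against the lowest signal well above background there, 5.12. Its log2 fold change after *miR-139-3p* was -0.09 ± 0.33. The bound rests on 1 probe at a signal under 10, where the scatter between spots is widest, and with normexp background correction the value was -0.07, within the threshold.

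*BCL2L2*, which encodes BCL-W, showed no difference past the threshold. Its signals were 483 on the mock, 455 on the *miR-139-5p* and 563 on the *miR-139-3p* array. The log2 fold change was -0.01 ± 0.20 after *miR-139-5p* and 0.43 ± 0.20 after *miR-139-3p*. *MCL1* had signals of 301 on the mock and 339 on the *miR-139-3p* array, a log2 fold change of 0.38 ± 0.20. On the *miR-139-5p* array its spot was marked as an outlier in local background and left out, and with the spot kept its signal was 327 and the log2 fold change 0.19.

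*BCL2A1*, an anti-apoptotic member known as a target of NF-κB, was highest on the *miR-139-5p* array with both probes, but the probes differed in size. Probe 1 had signals of 32.9 on the mock, 87.2 on the *miR-139-5p* and 45.1 on the *miR-139-3p* array. Probe 2 had signals of 1370 on the mock, 1758 on the *miR-139-5p* and 1203 on the *miR-139-3p* array. Probe 1 gave, after *miR-139-5p*, a log2 fold change of 1.48 ± 0.21 and probe 2 gave 0.43 ± 0.20, short of the threshold. The gene's mean was 0.96 (SD 0.74 over 2 probes), a 1.94-fold higher level, and it was not called from the brighter probe alone. Of 3743 symbols with several probes, 1.68% had a wider SD between probes in this comparison. After *miR-139-3p* the probes gave 0.66 ± 0.21 and 0.02 ± 0.20, and the mean was 0.34.

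**Figure D2:**
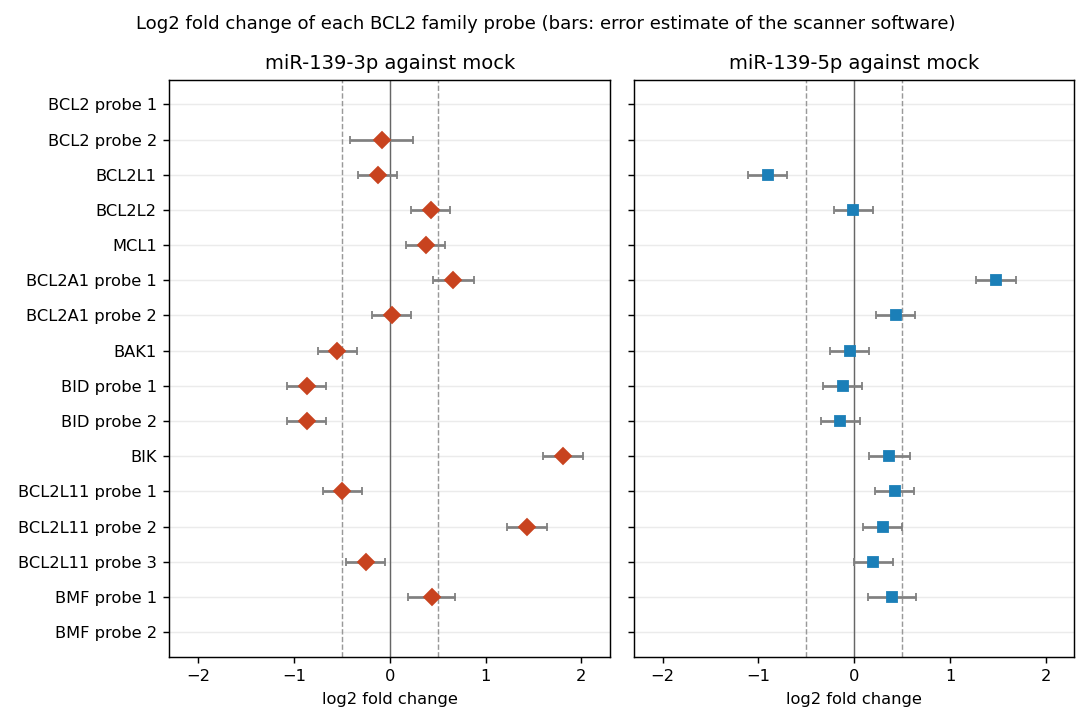
Log2 fold changes against mock (x axis) are plotted for each probe that was well above background on both arrays of a comparison, 1 array per group, with bars for the scanner software's error estimate and dashed lines at the threshold of 0.5. Probe 2 of *BCL2L11* lies to the right and probes 1 and 3 to the left of 0 after *miR-139-3p*, whereas the 2 *BID* probes give -0.87 each.

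*BAK1*, the effector, was lower on the *miR-139-3p* array alone. Its signals were 397 on the mock, 366 on the *miR-139-5p* and 235 on the *miR-139-3p* array. The log2 fold change after *miR-139-3p* was -0.55 ± 0.20, or 68.3% of mock, just past the threshold. Of all symbols, 25.8% were lower still. After *miR-139-5p* it was -0.05 ± 0.20.

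*BID*, the BH3-only protein that caspase-8 cuts to carry death receptor signals to the mitochondrion, was lower after *miR-139-3p* with both probes. Probe 1 had signals of 1767 on the mock, 1544 on the *miR-139-5p* and 839 on the *miR-139-3p* array. Probe 2 had signals of 2257 on the mock, 1937 on the *miR-139-5p* and 1070 on the *miR-139-3p* array. In both, the mock and *miR-139-5p* signals lay close together and the *miR-139-3p* signal stood apart. The gene's log2 fold change was -0.87 after *miR-139-3p*, or 54.8% of mock, with both probes at -0.87. After *miR-139-5p* it was -0.13, with probe values of -0.12 and -0.15. Without the mock array, *BID* was lower with *miR-139-3p* than with *miR-139-5p*, at a log2 fold change of -0.73. Against other genes this was not rare: 14.9% of symbols were lower after *miR-139-3p*, and of 2232 probes with a mock signal within 2-fold of probe 1's, 44.0% were lower past the threshold, with a median of -0.41.

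*BIK*, the BH3-only protein of the endoplasmic reticulum, showed the widest difference of the 10 members. Its signals were 33.8 on the mock, 41.4 on the *miR-139-5p* and 102 on the *miR-139-3p* array. The *miR-139-3p* array was the high one. The log2 fold change was 1.81 ± 0.21 after *miR-139-3p*, a 3.51-fold higher level, and 2.52% of symbols lay above it. Of 4492 probes with a mock signal within 2-fold of that of *BIK*, 31.7% were higher past the threshold and 2.58% lay above *BIK*. After *miR-139-5p* the log2 fold change was 0.37 ± 0.21. Between the transfected arrays, without mock, *BIK* was 1.44 higher after *miR-139-3p*. The value rests on 1 probe, and with another background correction (normexp, offset 50) it was 0.90.

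*BCL2L11* encodes BIM, a BH3-only protein made in several splice forms, and its 3 probes disagreed after *miR-139-3p*. Probe 1 had signals of 200 on the mock, 255 on the *miR-139-5p* and 123 on the *miR-139-3p* array. Probe 2 had signals of 95.1 on the mock, 111 on the *miR-139-5p* and 222 on the *miR-139-3p* array. Probe 3 had signals of 132 on the mock, 144 on the *miR-139-5p* and 95.9 on the *miR-139-3p* array. Probe 2 was thus highest on the array where probes 1 and 3 were lowest. The log2 fold changes were -0.49 ± 0.20, 1.43 ± 0.20 and -0.25 ± 0.20 for probes 1, 2 and 3. Probes 2 and 3 carry the same RefSeq accession in the files, NM_207002, while probe 1 carries NM_138621. Over the probes the mean was 0.23 (SD 1.05, n = 3 probes), so the gene's mean describes none of them, and 4.70% of 3684 symbols with several probes had a wider SD. After *miR-139-5p* the same probes gave 0.42, 0.30 and 0.20, with a mean of 0.31 (SD 0.11, n = 3 probes). Which splice forms each probe reads was not analysed here.

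*BMF*, a BH3-only protein tied to the cytoskeleton, was dim. Probe 1 had signals of 14.0 on the mock, 17.5 on the *miR-139-5p* and 16.4 on the *miR-139-3p* array. Probe 2, at 2.13, 2.41 and 1.80 in the same order, was well above background on none. Probe 1 was a little higher on both transfected arrays than on mock. Its log2 fold change was 0.40 ± 0.25 after *miR-139-5p* and 0.44 ± 0.25 after *miR-139-3p*, within the threshold in both.

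**Figure D3:**
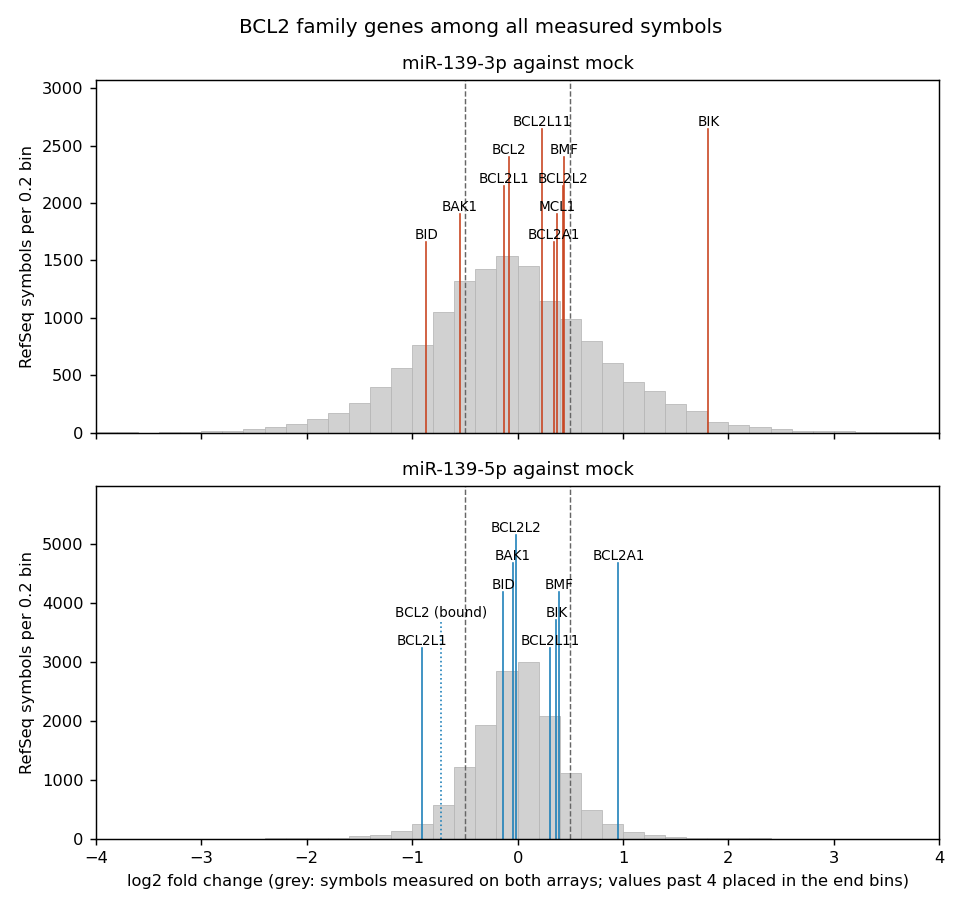
Grey bars count RefSeq symbols measured on both arrays (y axis) by log2 fold change against mock (x axis, bins of 0.2), without symbols that have a bound. Coloured lines mark the members, dotted for the bound of *BCL2* after *miR-139-5p*, and dashed lines mark the threshold of 0.5, with 1 array per group. After *miR-139-3p*, *BIK* at 1.81 lies in the right tail while the other members lie between -0.87 and 0.44. After *miR-139-5p*, *BCL2L1* at -0.90 and *BCL2A1* at 0.96 lie in the tails.

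The transfected arrays were also set against each other, a comparison that leaves out the mock array. Of 9 members with a value, *BIK*, *BCL2L1* and *BCL2* were higher and *BID*, *BCL2A1* and *BAK1* were lower after *miR-139-3p* than after *miR-139-5p*, beside 26.4% higher and 27.9% lower of 15428 symbols. *BAK1*, at -0.50, stood at the edge of the threshold. The value of *BCL2A1* was -0.61, with probe values of -0.82 and -0.41, and that of *BCL2* was a bound of 0.64. The remaining members with a value, *BCL2L2* at 0.44, *BCL2L11* at -0.08 and *BMF* at 0.04, lay within it.

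The rest of the pathway was read from 7 lists with 41 genes in all. Their counts past the threshold stand against the shares of all symbols given above, 26.5% higher and 27.9% lower after *miR-139-3p* and 10.7% and 12.3% after *miR-139-5p*. Of the 3 BCL2 family genes that are well known p53 targets, *BBC3*, which encodes PUMA, was higher after *miR-139-3p*, with signals of 480 on the mock, 360 on the *miR-139-5p* and 1786 on the *miR-139-3p* array, which gave a log2 fold change of 2.10. *BAX* and *PMAIP1* lay within the threshold there, at -0.05 and -0.04, though the *BAX* probes gave 0.56 and -0.66. After *miR-139-5p*, *BAX* was lower at -0.58. Among 8 other family genes, *BAD*, a BH3-only member controlled by phosphorylation, had signals of 1015 on the mock, 1054 on the *miR-139-5p* and 215 on the *miR-139-3p* array, which gave a log2 fold change of -2.03 for the latter. *BCL2L12* was at -1.50 (2 probes, -1.21 and -1.79) and *HRK* at 0.94 in the same comparison, though *HRK* was at 0.24 with normexp. Of all the family genes listed, *BIK*, *BBC3* and *HRK* were thus higher and *BID*, *BAD*, *BAK1* and *BCL2L12* were lower after *miR-139-3p*, with BH3-only genes on both sides. After *miR-139-5p*, *BOK*, an effector-like member, was at -0.63.

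In the death receptor branch, which leads to the cleavage of *BID*, 5 of 9 genes were higher and 1 was lower after *miR-139-3p*, beside 26.5% and 27.9% of all symbols. With spike-in scaling 4 were higher, beside 18.8% of all symbols. The receptor *FAS* had a log2 fold change of 2.37 (SD 0.39, n = 3 probes), or 1.52 with normexp. That of *TNFRSF10B* was 1.40 and that of *TNFRSF10A* 1.03. The adaptor *FADD* was at -0.75, with a mock signal of 3032. Of probes with mock signals of 884 to 3535, 44.0% were lower past the threshold after *miR-139-3p*, with a median of -0.41. *CASP10* was at 0.61 (0.38 with spike-in scaling) and *CFLAR*, an inhibitor of caspase-8, at 0.93, although its brightest probe gave -0.04 and the other probes up to 1.88. *CASP8*, which cuts BID, was at 0.50 and just short of the threshold. After *miR-139-5p*, *TNFRSF10B* at 0.54 was the 1 gene of the 9 past the threshold.

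Downstream of the mitochondrion, 1 of 4 apoptosome and caspase genes was higher and 1 was lower after *miR-139-3p*, the scaffold gene *APAF1* at 0.53 and *CASP9* at -0.75. At the same threshold of 0.5, the call of *APAF1* was lost in 5 alternatives, with values of 0.18 to 0.32. *CYCS*, which encodes cytochrome c, was at -0.17 with probe values of -0.89, -0.74 and 1.11, and past the threshold with the brightest probe or the median over probes. After *miR-139-5p*, *APAF1* was higher at 0.69 and *CYCS* was lower at -0.56. Among 6 caspase inhibitors and their antagonists, 3 were higher and 1 was lower after *miR-139-3p*, of which *XIAP* at 0.71 and *BIRC2* at 0.68 fell short of the threshold with spike-in scaling, at 0.48 and 0.45. *BIRC3*, an NF-κB target, had signals of 247 on the mock, 653 on the *miR-139-5p* and 1570 on the *miR-139-3p* array, log2 fold changes of 1.48 after *miR-139-5p* and 2.88 after *miR-139-3p*. *BIRC5*, which encodes survivin and is expressed in dividing cells, had signals of 6608 on the mock, 5348 on the *miR-139-5p* and 1540 on the *miR-139-3p* array, a log2 fold change of -1.89 after *miR-139-3p*.

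Of 5 mitochondrial partners, *VDAC3* at -0.83 and *BNIP3* at -0.52 were lower after *miR-139-3p*. *BNIP3* was short of the threshold of 0.5 in 4 alternatives, among them the deposited values at -0.32. Their mock signals were 1648 and 1851. Of probes with mock signals of 884 to 3535, 44.0% were lower past the threshold after *miR-139-3p*, with a median of -0.41. *BNIP3L* at 0.62 was higher after *miR-139-5p*. Of 6 regulators of MCL1 turnover and of BH3-only genes, the ubiquitin ligase gene *FBXW7* was at 1.69 and *HUWE1*, whose ligase marks MCL1 for destruction, at -0.97 after *miR-139-3p*. *FOXO3*, at -0.50, and *USP9X*, at -0.48, lay just within the threshold, and 4 of the 6 were lower with spike-in scaling or with no scaling. After *miR-139-5p*, *BTRC* at 0.72 and *FBXW7* at 0.66 were higher. Over the 7 lists together, 12 of 39 genes with a value were higher and 8 were lower after *miR-139-3p*, and 7 of 38 were higher and 3 were lower after *miR-139-5p*. With spike-in scaling the first balance turned, to 8 higher and 12 lower, beside 18.8% and 39.0% of all symbols, and with no scaling it was 9 higher and 11 lower, beside 19.6% and 37.8%. These scalings shift all genes of an array alike. With normexp, 2 genes, *BIRC3* and *CYCS*, were past the threshold after *miR-139-5p*, beside 3.47% higher and 4.23% lower of all symbols. In the reported setting, the median over the listed genes with a value was -0.02 after *miR-139-3p* and 0.01 after *miR-139-5p*.

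**Figure D4:**
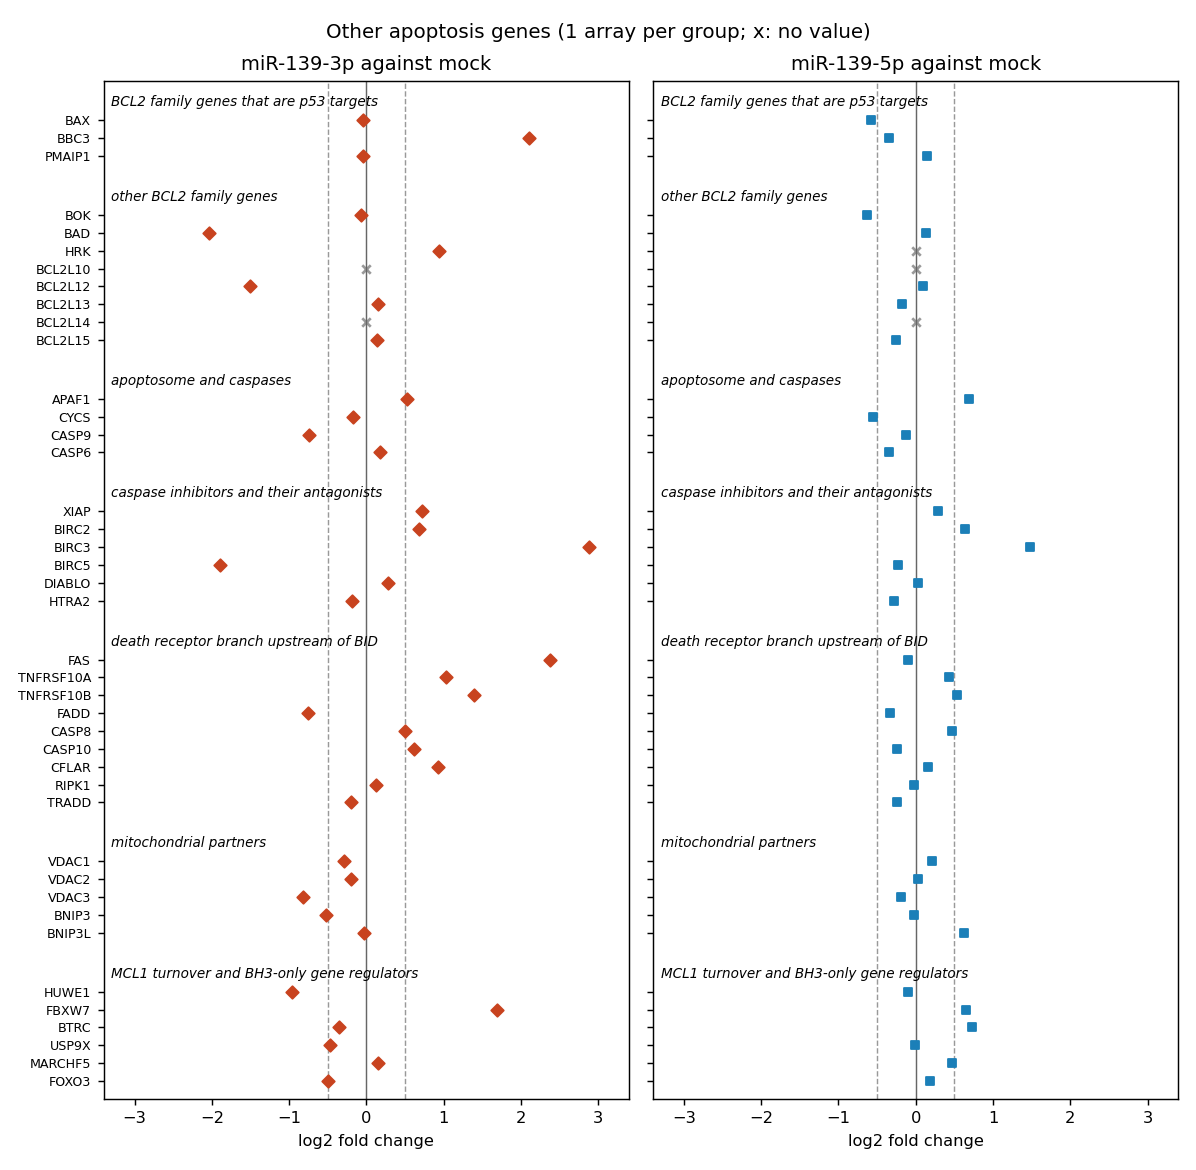
Log2 fold changes against mock (x axis) are plotted for the 41 other apoptosis genes by list, 1 array per group, with dashed lines at the threshold of 0.5 and a cross for genes without a value. The values after *miR-139-3p* spread from -2.03 for *BAD* to 2.88 for *BIRC3*, and those after *miR-139-5p* from -0.63 to 1.48.

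Over 11 other ways of processing, *BID* stayed past the threshold and lower after *miR-139-3p* (-1.10 to -0.64), *BIK* stayed past it and higher (0.90 to 1.95), and *BCL2L1* stayed past it and lower after *miR-139-5p* (-0.98 to -0.75). *BAK1* was below 0 in all 11 after *miR-139-3p* but past the threshold in 7 of them (-0.78 to -0.41). *BCL2A1* was past the threshold in 10 of 11 after *miR-139-5p*, the exception being the brightest probe alone at 0.43. For *BCL2L11*, probe 2 ranged from 0.98 to 1.57 and probes 1 and 3 from -0.72 to -0.11 after *miR-139-3p* over the other settings of scaling, background correction and outlier spots. *BCL2* after *miR-139-3p* ranged from -0.62 to 0.12 and so had no stable direction. *BCL2L2* in 3 of 11 and *MCL1* in 3 of 10 were past the threshold and higher after *miR-139-3p*, up to 0.63 and 0.52. *BMF* was past it and higher in 1 of 11 in each comparison. Its values ranged from 0.06 to 0.58 after *miR-139-3p* and from 0.08 to 0.52 after *miR-139-5p*.

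**Figure D5:**
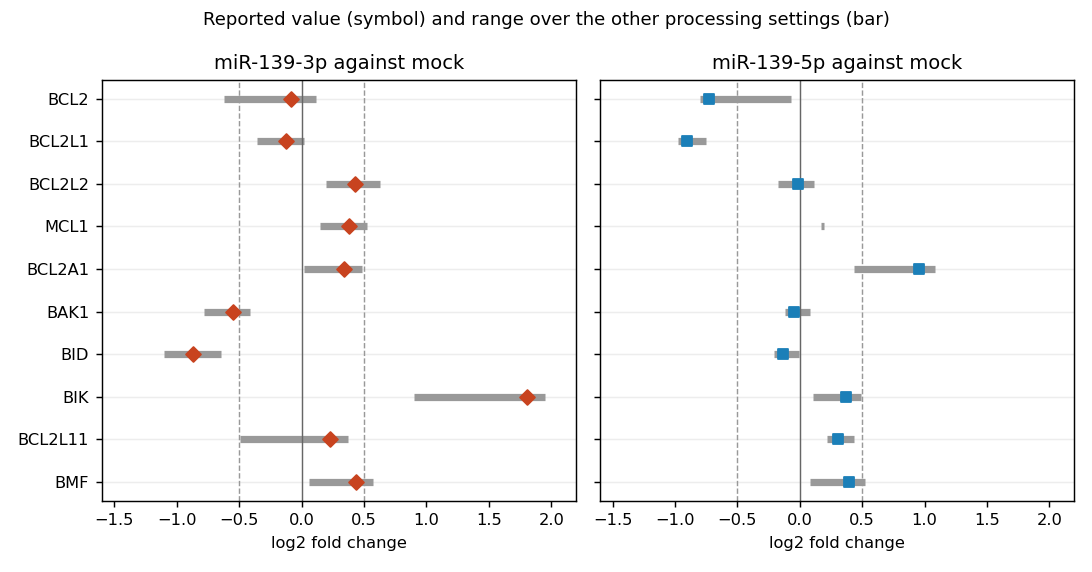
The reported log2 fold change of each member against mock (symbol, x axis) and its range over the other ways of processing (bar) are plotted, 1 array per group, with dashed lines at the threshold of 0.5. The bars of *BID* and *BIK* after *miR-139-3p* and of *BCL2L1* after *miR-139-5p* stay outside the dashed lines, and *MCL1* after *miR-139-5p* has a bar alone because its spot was left out.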

How the data were processed

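The 3 arrays, of 1 colour each, held RNA of A549 cells from 1 group each. Spot files deposited by the authors hold intensities read and background-subtracted by Feature Extraction 12.1.1.1, not normalized between arrays, together with median spot and local background intensities and the software's error of each intensity. A deposited table holds log2 values of each probe, which the spot files show to be quantile-normalized log2 signals.

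From the spots, log2 of the processed signal minus log2 of the array's 75th percentile over non-control spots was computed. Outlier spots were left out (614 for mock, 935 with *miR-139-5p*, 1526 with *miR-139-3p*). Of non-control spots, 49.9%, 48.1% and 53.1% were well above background in that order, and 0 were saturated. A probe counted as well above background where at least 50% of its spots were. A gene with no probe well above background on both arrays received a bound from its brightest probe well above background on 1. Probes were named through RefSeq GRCh38.p14, which matched 24751 of 25277 probes with an NM accession. The array was designed on another build, so no coordinates of genes are given.

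All 10 members were named with every probe, and other genes come from 7 apoptosis lists, of which some genes are not reported here. The members and lists were chosen with earlier results of these data known. Of 13 alternatives, 12 were run, none added later. The steps were tested on simulated data. Software: limma 3.58.1 in R 4.3.3 ran normexp (offset 50), and all other steps ran in Python 3.11.15 (matplotlib 3.10.9, pandas 2.3.3, numpy 2.4.6).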

Additional observations from a re-analysis of the deposited data

How the results depend on the processing

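No paired analysis was possible because each condition had 1 array and no test was made. Of 206 member values under the alternatives, 189 moved by less than the usual scatter among a gene's probes (median SD 0.28 after *miR-139-3p*, 0.15 after *miR-139-5p*), 17 moved by more, and 0 of those past the threshold changed sign. Past the threshold after *miR-139-3p* were 3 members, but 5 with quantile normalization, 5 with a 75th percentile of detected probes alone, 5 in the deposited values and 1 at a threshold of 1. The 2 lower members became 1 with that percentile, 1 with normexp and 0 at a threshold of 1, beside 22.4%, 19.0% and 11.8% of all symbols lower. The 1 higher member became 3 with quantile normalization, 4 with that percentile and 3 in the deposited values, beside 22.1%, 31.8% and 22.1% of all symbols higher in these settings. After *miR-139-5p*, the 3 members past the threshold became 0 at a threshold of 1. The 2 lower became 1 with normexp, 1 with probes detected on all arrays only and 0 at a threshold of 1. Of all symbols, 4.23%, 11.4% and 2.38% were lower in these settings. The 1 higher became 2 with spike-in scaling, 0 with the brightest probe and 0 at a threshold of 1. Of all symbols, 16.6%, 11.3% and 1.92% were higher in these settings.

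Of the other apoptosis genes after *miR-139-3p*, the 20 past the threshold became 9 at a threshold of 1, the 8 lower became 3 and the 12 higher became 6 there. Spike-in scaling gave 12 lower and 8 higher, and no scaling 11 lower and 9 higher. After *miR-139-5p*, the 10 past it became 2 with normexp and 1 at a threshold of 1. The 3 lower became 1 with spike-in scaling, 1 with normexp and 0 at a threshold of 1, beside 7.90%, 4.23% and 2.38% of all symbols. The 7 higher became 1 with normexp and 1 at a threshold of 1, beside 3.47% and 1.92% of all symbols. *CFLAR* reversed to -0.037 with its brightest probe.

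Scaling moved the median of all symbols after *miR-139-3p* from -0.09 to -0.30 with none, -0.32 with spike-ins and 0.05 with the percentile over detected probes. It moved the median after *miR-139-5p* from 0.00 to 0.13 with spike-ins. Of symbols past the threshold after *miR-139-3p*, 48.8% were higher, but 32.6% with spike-ins, 34.2% with no scaling, 34.6% with normexp and 58.7% with that percentile. After *miR-139-5p* the share was 46.6%, but 67.7% with spike-ins and 33.9% with no scaling. The 7 spike-in probes differed by a median of 0.23 (SD 0.13) between *miR-139-3p* and mock. The naming of probes by the array's own gene names was not run, since the spot files used here hold no such column. Signals under 20 limit *BCL2* and *BMF*.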
